A study of Homo sapiens with 6 samples.

Results

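The RNAs described here are the nuclear long noncoding RNA MALAT1 and the noncoding host transcripts of small nucleolar RNAs (snoRNAs), as measured in extracellular vesicles (EVs) of a human T cell line. The list held 10 genes, the nuclear RNAs MALAT1 and NEAT1 and the 8 snoRNA hosts GAS5, ZFAS1, SNHG1, SNHG3, SNHG5, SNHG6, SNHG8 and SNHG12. A probe set, the group of probes on an array that reports one transcript, was a member if the platform annotation gave it exactly 1 gene symbol and that symbol was on the list. This rule found 3 of the 19460 probe sets with 1 symbol (33297 probe sets in all), and they belonged to 2 of the 10 listed genes (18417 genes in all): MALAT1 had probe sets 7941272 and 7949410, and ZFAS1 had probe set 8063337. Of the other 8 genes, GAS5, SNHG1, SNHG3 and SNHG12 had only probe sets that the annotation shares with another gene (3, 6, 2 and 4), and for NEAT1, SNHG5, SNHG6 and SNHG8 the annotation lists no probe set.

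EVs were collected from WT Jurkat cells (labelled JK), a line from a human T cell leukemia, and from JinB8 cells, a Jurkat mutant line without CD47, called CD47- here. Both lines were grown under the same serum-free conditions with no other treatment, so the genotype difference rests on a single mutant line. RNA of 3 EV preparations from each line was hybridized to Affymetrix whole-transcript human arrays, and the submitters describe the preparations as replicates of cell culture without saying whether each had a culture of its own. The labels name a pair of EV isolation kits but not which preparation had which. The values are log2 levels from robust multi-array average (RMA), which sets every array to nearly the same distribution, so that each is a relative level within the RNA of a preparation and not an amount per EV.

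MALAT1 is an abundant, unspliced RNA that stays in the nucleus, where it gathers in speckles rich in splicing factors, and it is cut at its end by RNase P instead of being polyadenylated in the usual way. NEAT1 is transcribed from the neighboring gene and is the scaffold of paraspeckles. The snoRNA hosts are spliced RNAs whose introns carry snoRNAs, which guide chemical modification of ribosomal RNA; the remaining exons are exported and, for several hosts, degraded during translation, and many begin with the same run of pyrimidines (a TOP motif) as the mRNAs of ribosomal proteins. The comparison asked whether EVs from cells without CD47 held a different share of these nuclear and host RNAs than EVs from WT cells.

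Some of the hosts have such a run at their annotated start and others do not, and windows around the starts are given from RefSeq (GRCh38.p14), with 20 bases before the start and 30 from the start on. Capitals mark a run of at least 5 C or T letters that begins with C at the start itself. The first 3 sequences are the hosts that have the run, the next 2 are hosts that do not, SNHG1 and GAS5, and the last 2 are the annotated starts of MALAT1, which do not have it either.
ZFAS1 (chr20:49278622-49278671, plus strand): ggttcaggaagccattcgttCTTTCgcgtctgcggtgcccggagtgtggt
SNHG5 (chr6:85678704-85678753, minus strand): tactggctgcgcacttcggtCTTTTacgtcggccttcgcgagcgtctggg
SNHG12 (chr1:28581844-28581893, minus strand): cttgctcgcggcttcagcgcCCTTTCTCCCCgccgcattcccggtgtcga
SNHG1 (chr11:62855856-62855905, minus strand): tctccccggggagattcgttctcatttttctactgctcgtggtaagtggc
GAS5 (chr1:173869016-173869065, minus strand): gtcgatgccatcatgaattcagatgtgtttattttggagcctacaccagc
MALAT1 (chr11:65497718-65497767, plus strand): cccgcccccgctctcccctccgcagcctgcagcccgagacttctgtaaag
MALAT1 (chr11:65499025-65499074, plus strand): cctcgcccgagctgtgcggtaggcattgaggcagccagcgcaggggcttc
The run was found in 3 of the 7 listed hosts that have a window and in 13 of 30 genes on a list of protein-coding snoRNA hosts. A gene was counted if any of its windows had the run. On the same count, 892 of the 14239 measured genes with a window had it. By single windows, the run was in 1429 of all 35116 (4.07%). GAS5, SNHG1, SNHG3 and SNHG8 did not have it at their annotated start, which need not be the start used in these cells. Whether their RNAs begin with such a run was therefore not tested.

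The array medians lay between 5.08 and 5.14, and pairs of arrays correlated with r from 0.982 to 0.989 across probe sets. The 360 probe sets of olfactory receptors, which T cells do not normally express, served as a gauge of background, with a median level of 5.45 and a 95th percentile of 6.78. CD47 itself had levels of 4.72, 4.69 and 4.72 in WT and 4.58, 4.67 and 4.94 in CD47- EVs (log2 difference 0.02, standard error 0.09), so its probe set does not check the labels. All 14 T cell marker genes were measured, with CD7 (7.75), LCK (6.93) and CD3D (6.66) the brightest and 2 above that 95th percentile. None of the measured marker genes of B cells (3), myeloid cells (4), red cells (1), platelets (3) and hepatocytes (4) lay above it. Of the T cell probe sets, 9 of 14 lay above the olfactory receptor median, and so did 3 of 5 for hepatocytes. APOA1 of hepatocytes (6.37) and CD68 of myeloid cells (6.33) were brighter than CD3E (6.30). Most T cell markers were thus not set apart by level. None of these markers passed the test. The log2 values of the 14 T cell markers added up to 78.6 to 80.3 in WT and 81.1 to 81.4 in CD47- EVs. Such a sum of logs is not a total of RNA, and its difference was not tested. Fewer RNA molecules per EV and fewer EVs of a kind cannot be told apart in such preparations.

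None of the 3 member probe sets passed the test, but MALAT1 and ZFAS1 each had a probe set on which every CD47- array lay above every WT array. In the whole comparison, 138 of 19460 probe sets (0.709%) passed as higher in CD47- EVs and 3 (0.0154%) as lower (limma, adjusted p under 0.05). Before adjustment, 1024 (5.26%) had a p under 0.05 with a higher level, and for 1439 (7.39%) all CD47- arrays lay above all WT arrays. Of the members, 2 of 3 were in each of these last 2 groups. With only 3 probe sets these counts describe the members and say nothing more of the class.

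**Figure D1:**
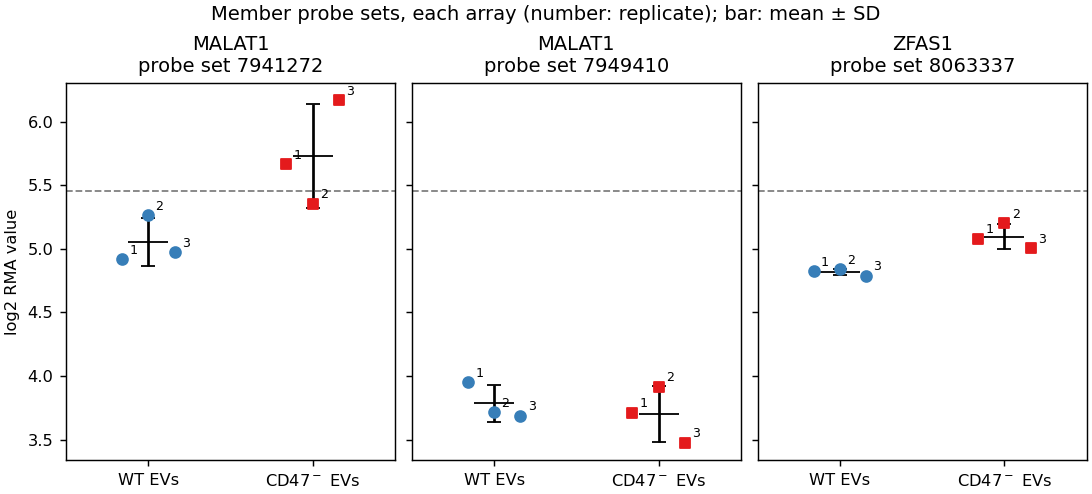
log2 RMA value (vertical axis) of the 3 member probe sets in each array, with WT EVs as blue circles, CD47- EVs as red squares and the replicate number beside each point. Bars are the mean ± SD (n = 3), and the dashed line is the median of the olfactory receptor probe sets, 5.45; the groups are separate for MALAT1 7941272 and ZFAS1 and overlap for MALAT1 7949410.

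MALAT1 was read by a brighter and a dimmer probe set. The brighter, 7941272, is assigned to the RefSeq transcript of MALAT1. Its levels were 4.92, 5.27 and 4.97 in WT EVs and 5.67, 5.36 and 6.17 in CD47- EVs. CD47- replicate 3 was the highest array, and CD47- replicate 2 lay only just above WT replicate 2. The WT mean of 5.05 ± 0.19 (SD, n = 3) compared with a CD47- mean of 5.73 ± 0.41 (SD, n = 3). The log2 difference was 0.68 (standard error 0.17, 95% confidence interval 0.31 to 1.04), a fold of 1.60 (1.24 to 2.06), with an adjusted p of 0.126 (0.00161 unadjusted, limma). By the size of the difference in either direction it ranked 70 of 19460, and by p it ranked 250. Among 690 probe sets of long noncoding RNAs it ranked 1 by size and 2 by p, and none of these 690 passed. Before adjustment, 20 of them had a p under 0.05 with a higher and 34 with a lower level.

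The call on this probe set turned on single arrays. Without CD47- replicate 2 the difference was 0.86 and passed (adjusted p = 0.0328), without CD47- replicate 3 it was 0.46 (adjusted p = 0.28), and after centering each array on the olfactory receptor probe sets it was 0.74 and passed (adjusted p = 0.0234). Over all alternatives the adjusted p ran from 0.0234 to 0.416, with a positive difference in each. Its mean level of 5.39 lay above 48.9% of the olfactory receptor probe sets, so this gauge does not place it above background, although MALAT1 is known as one of the most abundant nuclear RNAs.

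The dimmer probe set of MALAT1, 7949410, is assigned to deposited cDNA records and not to the RefSeq transcript. Its number lies among those of minus-strand genes, while MALAT1 is on the plus strand, and which strand it reads was not tested. It had levels of 3.95, 3.72 and 3.69 in WT EVs and 3.71, 3.92 and 3.48 in CD47- EVs, and the groups overlapped. The log2 difference was -0.08 (standard error 0.11, 95% confidence interval -0.33 to 0.16, adjusted p = 0.935), and its mean of 3.74 lay above 8.33% of the olfactory receptor probe sets. The difference between the brighter and the dimmer probe set within each array was 0.97, 1.55 and 1.28 in WT and 1.95, 1.44 and 2.69 in CD47- EVs. This gap was 0.76 larger in CD47- EVs (exact permutation test, two-sided p = 0.2, where the smallest possible is 0.1). With 3 arrays a group this test cannot go below 0.05, so it leaves unsettled whether the probe sets moved differently.

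ZFAS1, the host of the snoRNAs SNORD12, SNORD12B and SNORD12C and named for the gene ZNFX1 beside it, was read by 1 probe set. Its levels were 4.83, 4.84 and 4.79 in WT EVs and 5.08, 5.20 and 5.00 in CD47- EVs. The WT arrays lay within 0.05 of each other, and all 3 CD47- arrays lay above them. The WT mean was 4.82 ± 0.03 (SD, n = 3) and the CD47- mean 5.09 ± 0.10 (SD, n = 3), which gave a log2 difference of 0.28 (standard error 0.08, 95% confidence interval 0.11 to 0.45) and a fold of 1.21. The adjusted p was 0.205 (0.00395 unadjusted, limma), and ZFAS1 passed under none of the 13 alternatives (adjusted p from 0.0746 to 0.496). By the size of the difference in either direction it ranked 653 of all probe sets and 20 of the 690 long noncoding ones, and its mean of 4.96 lay above 33.1% of the olfactory receptor probe sets.

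The nuclear RNA was set against the host within each array, a comparison in which 3 arrays a group cannot give an exact p under 0.1. The brighter MALAT1 probe set minus ZFAS1 was 0.09, 0.43 and 0.18 in WT and 0.59, 0.15 and 1.16 in CD47- EVs, which is 0.40 more in CD47- EVs (exact permutation test, two-sided p = 0.3). The dimmer MALAT1 probe set minus ZFAS1 was -0.88, -1.12 and -1.10 in WT and -1.37, -1.28 and -1.53 in CD47- EVs, which is 0.36 less (exact permutation test, two-sided p = 0.1, the smallest possible), and the groups did not overlap. The sign of the nuclear against host contrast therefore depended on which MALAT1 probe set was taken, and these tests settled neither sign. ZFAS1 alone already separated the groups and the dimmer MALAT1 probe set alone did not. The separation in the second contrast therefore does not show a change in MALAT1. The median difference of all probe sets was 0.0036. That of the MALAT1 probe sets, 0.30, is the midpoint of 0.68 and -0.08 and describes neither.

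**Figure D2:**
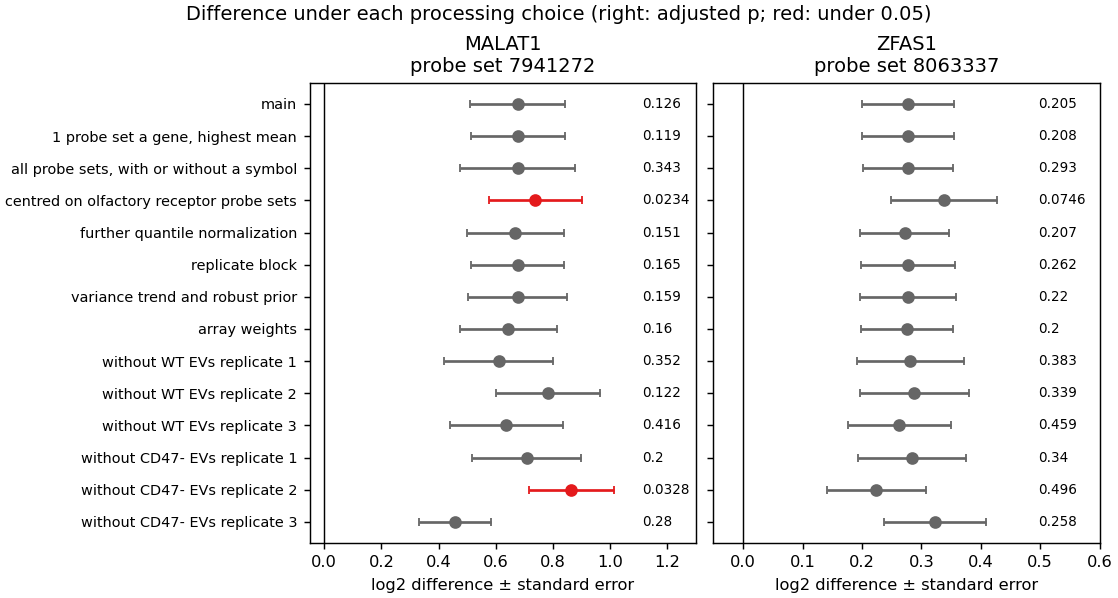
log2 difference between CD47- and WT EVs (horizontal axis, bars are ± the standard error) of the brighter MALAT1 probe set and of ZFAS1 as analysed (top) and under each other processing choice or without each array, with the adjusted p at the right. All values lie above 0, and the test was passed (red) for MALAT1 after olfactory receptor centering and without CD47- replicate 2, and never for ZFAS1.

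The remaining hosts could be seen only through shared probe sets, which were fitted with all 33297 probe sets and are not members. Each of these 15 is listed for a host together with a snoRNA of its introns or with an overlapping gene, so the value cannot be given to either. None passed, 9 differences were above 0 and 6 below, their median was 0.01, and no probe set had groups that did not overlap. GAS5, a host whose spliced RNA is known to build up when growth stops, had 3 shared probe sets with differences from -0.12 to 0.03 at mean levels of 2.91 to 3.14. SNHG1, the host of SNORD25 to SNORD31 and of SNORD22, had 6, with differences from -0.08 to 0.14 at mean levels of 2.81 to 4.09. These 9 lay far below the olfactory receptor median.

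SNHG3 overlaps RCC1, the exchange factor of Ran, and the probe set of both (RCC1 and SNHG3) had levels of 5.43, 5.41 and 5.41 in WT and 5.52, 5.35 and 5.59 in CD47- EVs. The difference was 0.07 (standard error 0.08, adjusted p = 0.927). The probe set of SNHG3 and SNORA73A had the largest positive difference of the 15, 0.29 (standard error 0.24), with levels of 4.17, 3.55 and 3.49 in WT and 4.15, 3.59 and 4.35 in CD47- EVs. Its groups overlapped widely, and in both groups the arrays were spread over more than the difference.

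SNHG12 gave the largest negative difference. Its probe set listed with SNORA16A, SNORA61 and SNORA44, H/ACA snoRNAs that guide the change of uridine to pseudouridine, had levels of 6.06, 5.96 and 5.87 in WT and 5.90, 5.48 and 5.67 in CD47- EVs. The difference was -0.28 (standard error 0.12, adjusted p = 0.598, unadjusted 0.044, limma), and CD47- replicate 1 lay above WT replicate 3. The other 3 SNHG12 probe sets, each shared with 1 of these snoRNAs, had differences from -0.04 to 0.04.

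The snoRNAs within the listed hosts had 13 probe sets of their own, 7 in GAS5, 2 in SNHG1, 2 in SNHG5, 1 in ZFAS1 and 1 in SNHG8. None passed. Of the 13, 12 (92.3%) had a difference below 0, against 54.5% of the 165 other snoRNA probe sets and 48.5% of all probe sets, and their median was -0.10, against -0.01 for the other snoRNAs. After centering on the olfactory receptor probe sets, which added 0.06 to every difference, 8 of 13 (61.5%) were below 0, against 35.2% of the other snoRNAs and 25.0% of all probe sets. Their median level was 3.46, below the olfactory receptor median, and the 7 of GAS5 lie in a single host transcript.

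SNORD12C, a C/D box snoRNA that lies in an intron of ZFAS1, was the one of the 13 with an unadjusted p under 0.05. Its levels were 3.37, 3.47 and 3.27 in WT and 3.23, 3.23 and 2.95 in CD47- EVs. All 3 CD47- arrays lay below all 3 WT arrays, the reverse of its host. The share of all probe sets separated in this lower direction was not counted. The log2 difference was -0.23 (standard error 0.09, adjusted p = 0.516, unadjusted 0.0296, limma). ZFAS1 minus SNORD12C was 1.45, 1.37 and 1.52 in WT and 1.85, 1.97 and 2.06 in CD47- EVs. This gap was 0.51 larger in CD47- EVs. Each probe set alone already separated the groups, in opposite directions. A two-sided exact permutation test on the gap could therefore give only p = 0.1, and it adds no support. This pair was singled out after its values were seen, and both probe sets are dim.

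The snoRNAs of GAS5 were all below 0, from -0.04 for SNORD74, at 6.41 the brightest of the 13, to -0.23 for SNORD78. SNORD78 had levels of 5.57, 4.82 and 4.79 in WT and 5.07, 4.83 and 4.61 in CD47- EVs, with WT replicate 1 well above the other 5 arrays. SNORD28 of SNHG1 was the only one above 0, with 0.03. SNORD50A and SNORD50B, the snoRNAs of SNHG5, had differences of -0.09 and -0.11, and SNORA24 of SNHG8 had -0.14. An intronic snoRNA is processed apart from its spliced host, so these values do not stand for SNHG5 or SNHG8.

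**Figure D3:**
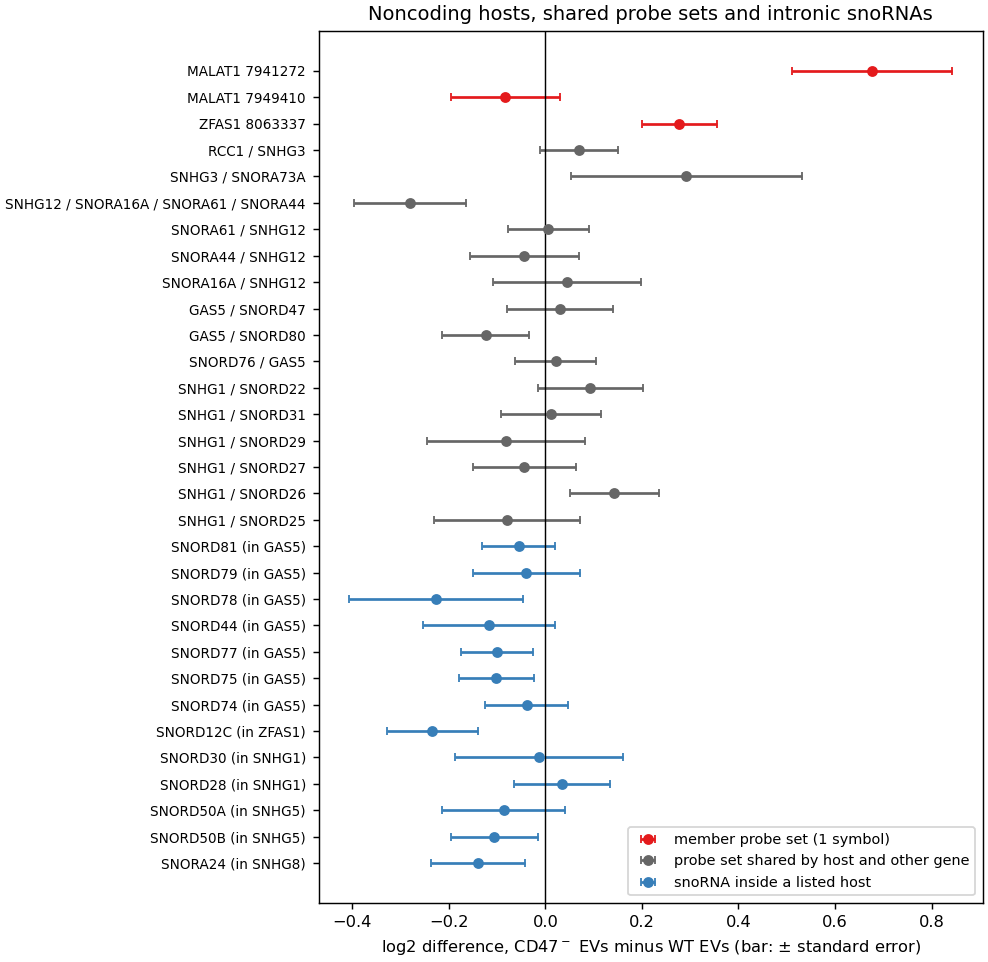
log2 difference between CD47- and WT EVs (horizontal axis, bars are ± the standard error) of the 3 member probe sets (red), the 15 probe sets that a listed host shares with another gene (grey) and the 13 snoRNA probe sets inside listed hosts (blue). MALAT1 7941272 and ZFAS1 lie to the right of 0, the shared probe sets scatter around 0, and 12 of the 13 snoRNAs lie to its left.

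Other transcripts with the same roles gave a scale for these values. Of 22 further noncoding snoRNA hosts, 3 genes with 5 probe sets were measured and none passed, with a median of 0.01. SNHG29, a host also known as LRRC75A-AS1, had levels of 6.48, 6.38 and 6.29 in WT and 6.46, 6.50 and 6.69 in CD47- EVs on its brighter probe set, a difference of 0.17 (standard error 0.09, adjusted p = 0.691). SNHG17 had differences of 0.07 and -0.06 on its 2 probe sets, and EPB41L4A-AS1 had 0.01. Of these 5 probe sets, 4 lay above the olfactory receptor median, with mean levels from 5.59 to 6.47.

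The protein-coding snoRNA hosts, mostly genes of ribosomal proteins, translation factors and chaperones whose introns carry snoRNAs, included many that passed. Of 38 genes, 28 were measured with 39 probe sets, of which 11, from 9 genes, were higher and none was lower, and the median was 0.29 with 35 of 39 above 0. Over all 19460 probe sets, 0.709% were higher and 51.5% lay above 0 (75.0% after olfactory receptor centering), at a median level of 5.21. The 35 of 39 is a count before that centering. This list was chosen with earlier results of these data known, so its counts describe it and are not a test. HSPA8, the constitutive HSP70 chaperone and host of SNORD14 snoRNAs, had levels of 7.88, 7.83 and 7.55 in WT and 8.87, 8.89 and 9.08 in CD47- EVs, a log2 difference of 1.19 (standard error 0.10, adjusted p = 2.25e-04). The elongation factor EEF2 was higher by 0.90, the ribosomal protein gene RPL30 by 1.08 and RPL5 by up to 0.86, and their groups did not overlap either. RPL5 has 3 probe sets that the annotation gives this symbol, with differences of 0.68, 0.86 and 0.64, and all passed. Their numbers lie far apart in the array's numbering, and whether all 3 read the RPL5 gene itself was not tested. The one with 0.86 missed the threshold when all 33297 probe sets were tested together (limma, adjusted p = 0.0525).

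The count of 11 ran from 6, with all probe sets tested together, to 16, after olfactory receptor centering, and was 7 without WT replicate 3. Of the 39 probe sets, 25 lay above the olfactory receptor median, and their median level was 6.75. The ZFAS1 difference of 0.28 was above those of all 5 other noncoding host probe sets, a difference that was not tested.

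**Figure D4:**
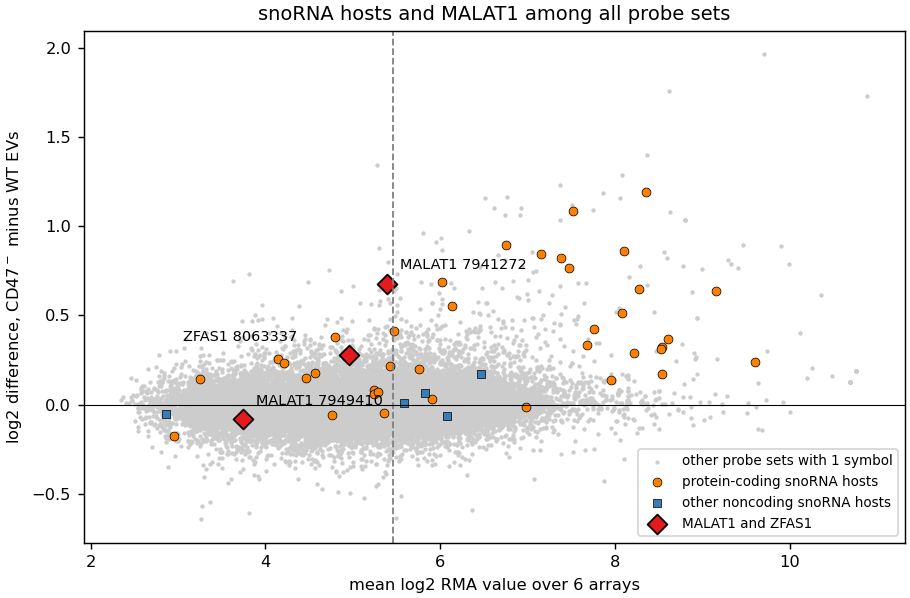
log2 difference between CD47- and WT EVs (vertical axis), plotted by mean RMA level on the log2 scale (horizontal axis), for 19460 probe sets with 1 symbol (grey), with MALAT1 and ZFAS1 (red diamonds), protein-coding snoRNA hosts (orange circles) and other noncoding snoRNA hosts (blue squares). The dashed line is the olfactory receptor median; the 3 members lie to its left, most of the largest differences of protein-coding hosts lie to its right, and the noncoding hosts lie near 0.

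Across all genes with a window, the run of pyrimidines at the start went with a higher share of calls. Each gene was taken by its brightest probe set. Of 892 genes with the run, 23 (2.58%) were higher in CD47- EVs and none was lower, against 78 of 13347 genes (0.584%) higher and 3 lower without it. The median difference was 0.02 with the run and 0.002 without, at median levels of 5.39 and 5.17. This difference in shares was not tested. ZFAS1 was the only one of the 3 with the run that had a probe set of its own.

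The proteins that act on these RNAs were measured as mRNAs in the same EVs, and none of those listed passed. Of 15 measured paraspeckle protein genes (17 probe sets), 5 probe sets had a higher level with p under 0.05 before adjustment, against 5.26% of all probe sets, and the median was 0.07. NONO, a core paraspeckle protein that binds NEAT1, had levels of 5.21, 4.97 and 4.77 in WT and 5.49, 5.46 and 5.92 in CD47- EVs, a difference of 0.64 (standard error 0.13, adjusted p = 0.0572). HNRNPK, a paraspeckle protein that also shuttles between nucleus and cytoplasm, had a difference of 0.68 (standard error 0.16, adjusted p = 0.0977). These are close in size to the 0.68 of MALAT1.

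Of 19 genes for speckle proteins and for processing of the MALAT1 end, 3 had a higher level with p under 0.05 before adjustment, against the same 5.26%, and the median was 0.07. The splicing factors SRSF3 and SRSF1 had differences of 0.24 and 0.29 (adjusted p = 0.291 and 0.354). The products of snoRNP genes build the particles that hold snoRNAs. Of 15 such genes measured, 15 of 16 probe sets were above 0, with a median of 0.10. Of all probe sets, 51.5% were above 0, or 75.0% after olfactory receptor centering. The 15 of 16 is a count before that centering. FBL, the methyltransferase of C/D box snoRNPs, had levels of 6.66, 6.85 and 6.72 in WT and 7.07, 7.02 and 7.13 in CD47- EVs, a difference of 0.33 (standard error 0.08, adjusted p = 0.103), and DKC1, the pseudouridine synthase of H/ACA snoRNPs, had 0.23. Of 14 genes for nonsense-mediated decay, the pathway that removes the spliced RNA of several hosts, 2 of 15 probe sets had a higher level with p under 0.05 before adjustment, again against 5.26%, and the median was 0.03. They were those of EIF4A3 and MAGOH, both of the exon junction complex, with log2 differences of 0.29 and 0.24.

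Other RNAs listed as nuclear, which need not stay in the nucleus throughout, had mostly small differences. Of 13 further nuclear long noncoding RNAs, 4 were measured and none passed. TUG1 had a difference of 0.11, JPX of 0.11 and MEG3 of 0.07. DLEU2, the host of microRNAs deleted in leukemia, had levels of 3.19, 2.79 and 3.20 in WT and 2.81, 2.57 and 2.75 in CD47- EVs, a difference of -0.35 (standard error 0.11, unadjusted p = 0.00942, adjusted p = 0.311). The difference between MALAT1 and these RNAs was not tested. Of 15 genes for structural small RNAs of the nucleus, none passed, and their 26 probe sets, of which 18 had a profile of their own because several RNU2-1 probe sets hold identical values, had a median of 0.13, or 0.08 over the 18. The U5 RNAs RNU5E-1 and RNU5A-1 had differences of 0.43 and 0.23 (adjusted p = 0.569 and 0.429).

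Probe sets of other genes whose profile over the 6 arrays was most like that of the brighter MALAT1 probe set, by Pearson's r, were those of PRDX1 (r = 0.984), SRI (0.981), RPS20 (0.977), ALDOA (0.976) and S100A10 (0.972). Of these 5, PRDX1, a peroxiredoxin, and RPS20, a ribosomal protein gene and itself a snoRNA host, passed as higher, with log2 differences of 0.57 and 0.76. PRDX1 passed under 5 and RPS20 under 8 of 14 alternatives (highest adjusted p = 0.203 and 0.199). For ZFAS1 they were CSTB (0.993), ELK4 (0.991), LIMD1 (0.991), the noncoding FLJ13224 (0.987) and PGBD5 (0.987), of which none passed, and CSTB, an inhibitor of cysteine proteases, had a log2 difference of 0.30. These r are a description over 6 arrays that include the difference between the groups.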

How the data were processed

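The authors deposited log2 values, which the submitters' processing notes credit to RMA in Affymetrix Expression Console: background was corrected, arrays were normalized by quantiles and probes were combined. Tool versions and the genome build were not given in the sources used here. Groups came from the labels and gene symbols from the platform annotation. The members and lists were chosen with earlier results of these data known. CD47- EVs were compared with WT EVs (3 arrays each) with limma 3.58.1 (lmFit, eBayes) in R 4.3.3 over 19460 probe sets with 1 symbol, with Benjamini-Hochberg adjustment and a threshold of 0.05, a step tested on simulated data. Within-array differences had exact permutation tests, and lists had no set test. The text names, of each list, up to 4 genes that passed or otherwise the 2 with the smallest p. CD7, LCK, CD3D, APOA1, JPX, MEG3, EPB41L4A-AS1, SNORD74 and SNORD78 were named after their values were seen. Likeness was sought among genes with an SD at least 0.5 times that of the member. Alternatives were other scalings, variance models and sets of probe sets, array weights, a replicate block, a filter on dim probe sets and leaving out each array. The number of arrays limits the precision, and p-values measure only the spread between these preparations, which may be technical.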

Additional observations from a re-analysis of the deposited data

How the results depend on the processing

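The number of probe sets that passed was 141, and 259 after centering on the olfactory receptor probe sets (257 higher and 2 lower, with the median of all differences moving from 0.0036 to 0.06). Leaving out 1 array gave 65 to 119 (65 without WT replicate 3, 72 and 88 without CD47- replicates 3 and 2). The number of members that passed as higher was 0, and 1 (MALAT1 7941272) after that centering, and ran from 0 to 1 without 1 array. The difference of MALAT1 7949410 turned to 0.0304 without CD47- replicate 3, with a range of -0.19 to 0.0304 over the left-out arrays. The causes were not tested. With the replicate number as a block, 111 probe sets passed, and the adjusted p was 0.165 for MALAT1 7941272 and 0.262 for ZFAS1. The values gave no sign that the numbers pair the samples. Same-numbered arrays deviated from their group means with correlations of 0.02, -0.02 and -0.04 across probe sets, and only WT replicate 1 correlated best with its own number. Whether same-numbered preparations were made together is not known. In the other settings, 117 to 183 probe sets passed, but some of these counts are over other sets of probe sets. The 181 is over all 33297, the 183 over those above the olfactory receptor median and the 126 over 1 a gene. These 3 are not like counts to the 141. The medians of the nuclear and host members stayed between 0.24 and 0.36 and between 0.22 and 0.34. All 3 members lie below the olfactory receptor median, so the filter on dim probe sets gave no value for them. At such levels a true change may appear smaller than it was.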

Other observations

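The 2 probe sets named MALAT1 sit in different blocks of the array's numbering. Of the 20 probe sets with 1 symbol whose numbers are nearest to 7941272, 20 belong to genes on the plus strand of chromosome 11, the strand of MALAT1. Of the 20 nearest to 7949410, 19 belong to genes on the minus strand of chromosome 11 and 1 to a gene on its plus strand. Whether 7949410 reads the strand opposite to MALAT1 was not tested, since no probe sequences were used here, and its difference of -0.08 is given under the name that the annotation gives it.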
